A study of Homo sapiens with 12 samples.

Results

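Assembled transcripts are RNA models that an assembler built from the reads and that matched no annotated transcript. They carry identifiers starting with TCONS_, and where no known gene matched, the locus carries a name starting with XLOC_. Those described here are the 2810 assembled transcripts whose mean over the 12 libraries reached 1 FPKM (sequenced fragments scaled by transcript length and by library size), out of 32572 assembled transcripts and 259360 transcripts in all. They were chosen by their mean FPKM over all libraries, so the values of every group entered the choice. They were divided by whether their gene was in the deposited table of protein-coding genes (1392 transcripts) or not (1418 transcripts), and together they belonged to 2261 genes or loci.

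All libraries came from TE-1, a human oesophageal cancer line grown in DMEM with serum, and RNA was collected 48 h after transfection. OE_IFI6 received a vector that overexpresses IFI6, a gene induced by interferon. OE_control received the matching control vector, sh_IFI6 an interference vector against IFI6, and sh_control the control interference vector. Each of the 4 groups had 3 libraries. One cell line was used. Nothing in the labels shows that libraries of 1 group were separate cultures, so the p-values given cover the spread between libraries, and that spread may be technical.

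Most of a mammalian genome is transcribed at some level, and an assembler reports stretches that the reference catalogue lacks. Such models can be alternative starts, ends or splice forms of a known gene, transcripts read through from one gene into the next, or transcripts from the strand opposite a gene. Transcripts from both strands start near many active promoters, and many of those that run opposite to a gene are short-lived because the nuclear exosome and 3′ end processing factors remove them. Small abundant RNAs made by RNA polymerase III, and the ribosomal RNA repeats, also gather reads that an assembler can join to a longer model.

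The sequences of the assembled transcripts themselves were not used here. Reference sequences of the promoters of 2 genes are given instead, and no result below rests on their motifs. The promoters of IFI6 and DNAJB1 are shown because an assembled transcript on the other strand ended near each start and moved with the gene. DNAJB1 has 3 starts in RefSeq, and the one nearest to the bound of that transcript was taken. Both are the 250 bases before the gene's start, from RefSeq on GRCh38.p14, read on the minus strand, at chr1:27672193-27672442 for IFI6 and chr19:14518398-14518647 for DNAJB1. Capitals in IFI6 mark the core of the interferon-stimulated response element, searched as GAAANNGAA and, on the other strand, TTCNNTTTC. Capitals in DNAJB1 mark the core of the heat shock element, searched as GAANNTTC and TTCNNGAA, each of which reads the same on both strands.
IFI6: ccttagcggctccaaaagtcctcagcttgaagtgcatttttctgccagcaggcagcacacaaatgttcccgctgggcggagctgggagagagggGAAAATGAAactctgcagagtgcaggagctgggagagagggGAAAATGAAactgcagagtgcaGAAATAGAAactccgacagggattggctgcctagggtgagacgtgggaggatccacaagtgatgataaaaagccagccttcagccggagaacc
DNAJB1: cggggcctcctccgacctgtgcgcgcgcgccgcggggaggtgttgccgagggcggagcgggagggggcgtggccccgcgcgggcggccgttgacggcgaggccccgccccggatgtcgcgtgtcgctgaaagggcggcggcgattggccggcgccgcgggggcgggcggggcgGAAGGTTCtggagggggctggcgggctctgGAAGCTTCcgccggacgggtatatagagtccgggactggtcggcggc
The IFI6 window held 3 matches, between 84 and 156 bases before the start, and 6.88% of 35116 promoter windows of that length held at least 1. The DNAJB1 window held 2 matches, between 39 and 77 bases before the start, and 11.6% of the windows held at least 1. These matches describe letters and do not show that a factor was bound. OE_IFI6 received a vector that overexpresses IFI6, and how much of the IFI6 RNA came from the chromosomal promoter was not tested.

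The assembled transcript with the highest mean lay over genes for 7SL RNA, the RNA part of the signal recognition particle that guides new secreted proteins to the endoplasmic reticulum. 7SL RNA has many near-identical gene copies. The sources used here do not state how reads were split between such copies, so every value at these loci is uncertain.

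Most assembled transcripts were scarce. Their median level was 1.86 FPKM, against 3.14 FPKM for the 25411 annotated transcripts that reached the same minimum, and 54.2% lay under 2 FPKM against 33.4% of annotated ones. At least 10 FPKM was reached by 233 and at least 100 FPKM by 28, of which 23 were outside protein-coding genes. In all 12 libraries 36.5% held at least 1 FPKM, against 45.9% of annotated transcripts, while 542 (19.3%) were listed at 0 in some library. One library held over 50% of the summed level for 87 of them. A mean of at least 1 FPKM in each of the 4 groups was found for 1827, and in only 1 group for 93. Just above the minimum were transcripts of HRC (1.0006 FPKM), AFAP1-AS1 and XLOC_173999, and just below it were transcripts of ACSBG1, MPC1 and HELLS (0.99996 FPKM).

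Whole-library values and markers were checked once. Summed FPKM over all transcripts was 456297 to 568643 per library, and read totals were not used here. The keratin genes KRT8 (930 FPKM) and KRT18 (439 FPKM) were high, but EPCAM, KRT5 and SOX2 were listed at 0, so only 2 of 9 listed epithelial and squamous markers reached 1 FPKM. Among markers of other cell types, 4 of 5 fibroblast genes, 2 of 4 immune genes and 0 of 3 endothelial genes reached 1 FPKM. Coordinates are those of the deposited tables, and 93.3% of 205999 annotated transcripts matched by identifier had the bounds of GENCODE release 29, which uses GRCh38.

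Of the 2518 assembled transcripts whose gene is annotated, 229 had both outer bounds equal, to the base, to bounds of annotated transcripts of that gene. A further 667 had 1 such bound and 1622 had neither. The left and right bounds may match different annotated transcripts. Among those outside protein-coding genes, 581 belonged to genes of antisense type, 227 to assembled loci with no known gene, 134 to processed pseudogenes and 112 to long intergenic non-coding genes. The spans were wide, with a median of 20490 bases. The files used give outer bounds and no exons for assembled transcripts, so overlap here is between the whole span of a model and annotated exons, and a span may cross an exon that the model does not contain. The spans of 143 held exons of at least 2 protein-coding genes on their own strand, 122 of them in the protein-coding class.

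A gene's deposited value is the sum of its transcripts, so the assembled transcripts enter it. They belonged to 1116 of the 10925 protein-coding genes that reached a mean of 1 FPKM and held a median of 22.0% of these genes' FPKM. In 242 genes (21.7%) they held over 50%, in 76 over 90% and in 268 under 10%. For CCN2, which encodes a secreted matricellular growth regulator, the assembled transcript held 86.6% of the gene's FPKM. For PTPRD, a receptor phosphatase gene, it held 100%, and for NEMF, which encodes a factor of ribosome quality control, the 2 assembled transcripts held 99.9%. The spans of both of the last hold 7SL genes, and where in the spans their reads fell was not tested.

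The NEMF transcript TCONS_00121976 (chromosome 14, 49545451 to 49862914, minus strand) was the highest of all, with a mean of 1680 FPKM. It runs over 7SL genes, and the transcripts of NEMF other than its 2 assembled ones together held only 1.13 ± 0.256 FPKM in OE_control (SD, n = 3). Its levels were 1382, 642 and 1165 FPKM in OE_control, 4476, 3549 and 957 in OE_IFI6, 1006, 1166 and 1202 in sh_control, and 1309.6, 2532 and 775 in sh_IFI6. OE_IFI6 libraries 1 and 2 were the highest of the 12, but the third lay among the controls, and the difference between OE_IFI6 and OE_control did not pass (log2 1.29, SE 0.59, limma adjusted p = 0.39).

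In the other class the highest was TCONS_00415756, over a 5.8S ribosomal RNA gene (RNA5-8SN5) on an unplaced scaffold, with a mean of 1431 FPKM. Ribosomal RNA is the bulk of cellular RNA and is usually depleted before such libraries are made. In all, 50 assembled transcripts lay over ribosomal RNA repeats and 15 over 7SL genes of at least 1 FPKM. These 65 held between them more uneven shares of the libraries than the other 2745, as the plot of summed FPKM shows. The ribosomal ones took 0.850% to 2.96% of a library's FPKM, the 7SL ones 0.365% to 1.14%, and the rest 2.25% to 2.51%. All 2810 together took 4.01% to 6.35%, with the highest value in OE_IFI6 library 1, and the groups overlapped (4.37% ± 0.322 in OE_control, 4.84% ± 1.32 in OE_IFI6, 4.36% ± 0.313 in sh_control and 4.51% ± 0.371 in sh_IFI6; SD, n = 3).

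**Figure D1:**
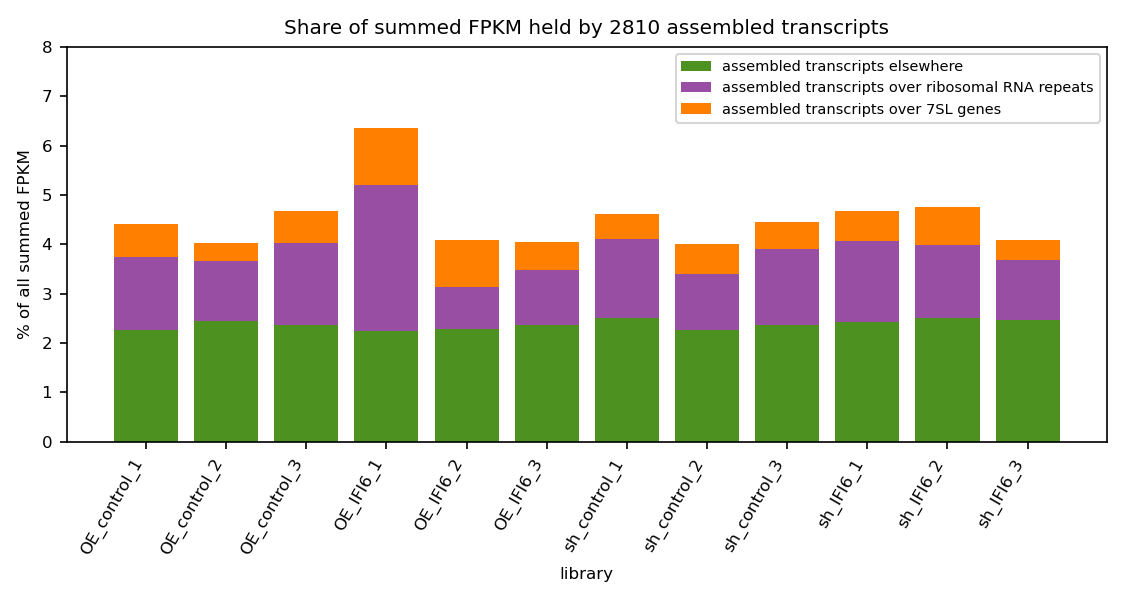
Share of each library's summed FPKM (vertical axis, %) held by the 2810 assembled transcripts, stacked for those over 7SL genes, over ribosomal RNA repeats and elsewhere, in the 12 libraries (horizontal axis). The share held elsewhere stays between 2.25% and 2.51%, and OE_IFI6 library 1 has the tallest ribosomal part, 2.96%.

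Several abundant assembled transcripts of single genes switched between libraries of the same group. The CHP1 transcript TCONS_00128266 was at 132, 149 and 43.9 FPKM in OE_control but at 3.85, 150 and 0 FPKM in sh_IFI6. An RPL34 transcript, of a ribosomal protein gene, ranged from 5.27 to 191 FPKM. A second transcript of RPL7A, also a ribosomal protein gene, was listed at 0 in 7 libraries and reached 501 FPKM in sh_IFI6 library 2. None of these 3 passed in any comparison. Over all assembled transcripts the median within-group SD on the log2(FPKM + 1) scale was 0.33, with 0.39 in protein-coding genes and 0.27 in other genes. It was 0.45 for annotated transcripts.

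The first question of the design is what changes with IFI6 overexpression. Tests ran in limma on log2(FPKM + 1) over all 28221 transcripts of at least 1 FPKM, with a threshold of 0.05 on the Benjamini-Hochberg adjusted p, and fold changes on this scale understate those of scarce transcripts. Between OE_IFI6 and OE_control, 28 assembled transcripts passed, 15 higher and 13 lower in OE_IFI6. That is 0.996% of them, close to the background of 1.16% of all transcripts tested (0.599% higher and 0.563% lower). By class, 4 rose and 5 fell in protein-coding genes and 11 rose and 8 fell in other genes. The median log2 difference was -0.03 for the assembled transcripts and 0.02 for all transcripts. Single libraries moved the count. It was 20 without OE_control library 3 or without sh_control library 1, 18 or fewer without any other library, and 9 without OE_IFI6 library 2, and 7 transcripts passed in all 12 such fits. These 7 are described first.

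In most of the 28 the OE_control libraries were the ones that stood apart. The 3 OE_control libraries lay below all 9 others in 13 transcripts and above all 9 others in 12, whereas the 3 OE_IFI6 libraries lay apart from all others in 6. All 28 passed for a difference from OE_control, and the same counts were not made over all transcripts tested. The counts therefore do not set the assembled transcripts apart from other transcripts. Between OE_control and sh_control 17 assembled transcripts passed (0.605%, against a background of 1.03%), 6 higher and 11 lower in OE_control (backgrounds 0.482% and 0.549%). The count fell to 8 without sh_control library 1, 7 without sh_control library 2, and 11 without sh_IFI6 library 1 or 3. Of the 17, 13 were among the 28, or 76.5% of the 17 and 46.4% of the 28. The 2 comparisons share the OE_control libraries, so the overlap is not separate evidence. OE_IFI6 and sh_control differed in 3 assembled transcripts (0.107%, against a background of 0.0532%).

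**Figure D2:**
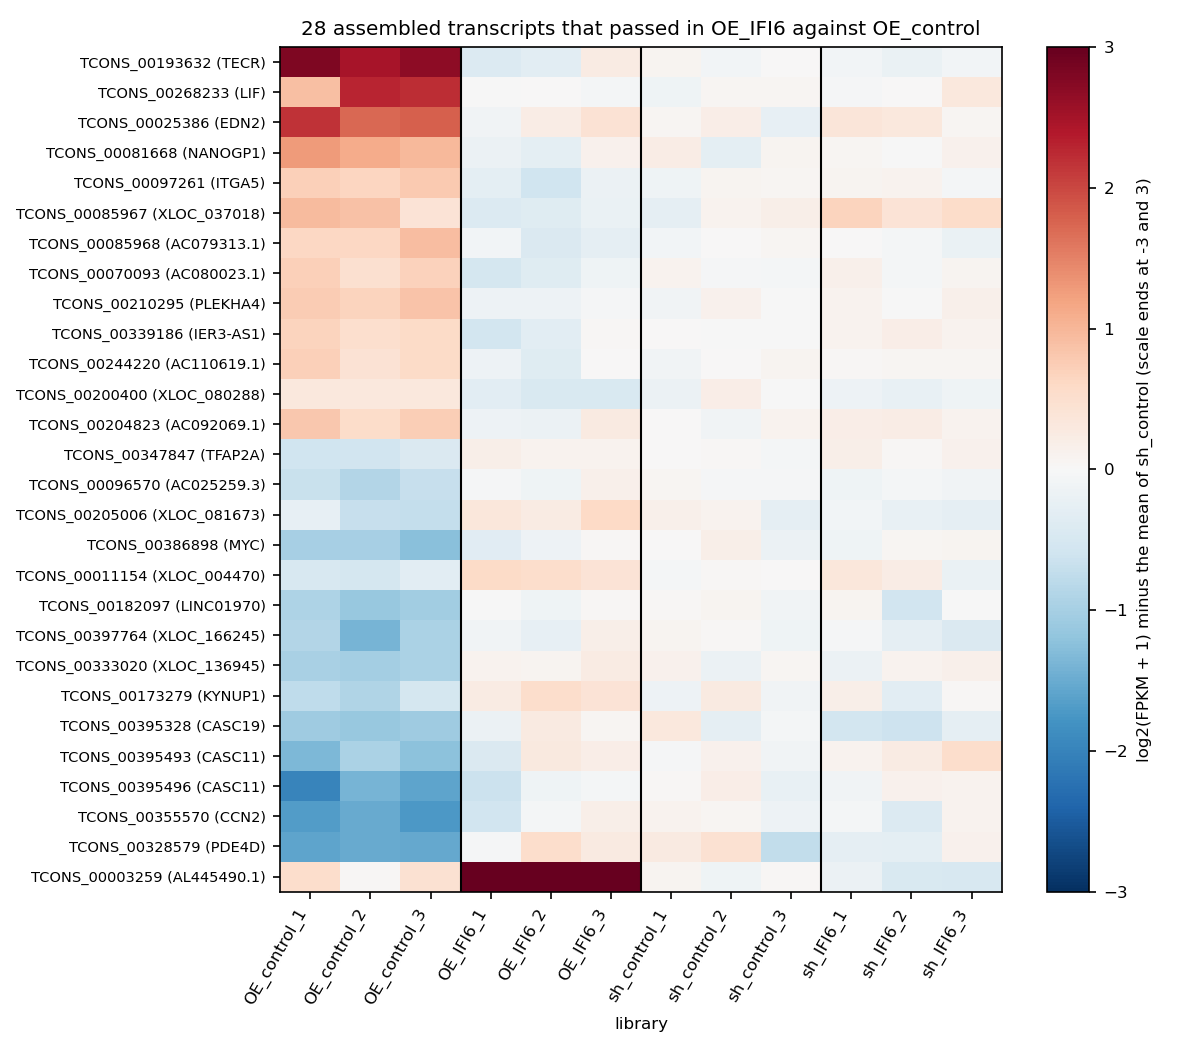
Levels of the 28 assembled transcripts that passed between OE_IFI6 and OE_control (rows, with gene or locus) in the 12 libraries (columns), as log2(FPKM + 1) minus the mean of the sh_control libraries, on a scale that ends at -3 and 3. The 3 OE_control columns are the coloured ones in most rows, and the last row, opposite IFI6, is high only in OE_IFI6.

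The transcript with the strongest rise lay opposite IFI6 itself. TCONS_00003259 was assigned to AL445490.1 (ENSG00000225886), an antisense gene on the plus strand, at chromosome 1, 27666184 to 27672220. IFI6, on the minus strand, spans 27666064 to 27672198, and the right bound of TCONS_00003259 lies 28 bases past the start of IFI6 in RefSeq, inside the promoter window printed above. Its levels were 54.3, 42.8 and 56.0 FPKM in OE_IFI6, 4.87, 3.19 and 4.63 in OE_control, 3.33, 2.75 and 3.18 in sh_control, and 2.64, 1.96 and 1.93 in sh_IFI6. All OE_IFI6 libraries lay far above the other 9, and the sh_IFI6 libraries lay below all others. The rise was 3.32 on the log2 scale (SE 0.18, limma adjusted p = 4.4e-05). IFI6 rose by 3.62 in the same libraries, and the ratio of the assembled transcript to IFI6 stayed between 11.4% and 17.8% in all 12. In the knockdown comparison its difference was -0.37 (limma adjusted p = 0.92), beside -0.64 for IFI6. The sources used here do not say whether counting used strand, and without it reads of a gene and of its antisense partner cannot be told apart.

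The strongest fall lay opposite DNAJB1, a heat-inducible HSP40 co-chaperone gene. TCONS_00193632 was assigned to TECR, which encodes an enzyme of very long chain fatty acid synthesis, at chromosome 19, 14514712 to 14518482 on the plus strand. Both of its bounds lie within 200 bases of those of a DNAJB1 transcript. Its right bound is 85 bases past the nearest of 3 DNAJB1 starts in RefSeq, upstream of both heat shock element cores printed above. The start was chosen for being nearest, so the closeness is partly set by that choice. Its levels were 15.3, 12.1 and 14.2 FPKM in OE_control, 0.762, 0.904 and 1.78 in OE_IFI6, 1.48, 1.22 and 1.37 in sh_control, and 1.21, 1.05 and 1.22 in sh_IFI6. OE_control was high and the other 9 libraries lay together near 1 FPKM. It fell by 2.81 on the log2 scale between OE_control and OE_IFI6 (SE 0.18, limma adjusted p = 0.00019), and DNAJB1 fell by 3.07, from 272 ± 26.3 to 31.5 ± 1.69 FPKM (SD, n = 3).

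This transcript also enters the deposited value of TECR. With it, TECR was 45.2 FPKM in OE_control and 30.5 in OE_IFI6, a difference that did not pass (limma adjusted p = 0.10). The other TECR transcripts summed to 31.3 ± 7.65 and 29.4 ± 5.73 FPKM (SD, n = 3), so most of the gene's difference sat in the assembled transcript. As a share of its gene it fell as well (log2 -2.73, limma adjusted p = 0.0095). Over the 1721 assembled transcripts that could be tested as a share of their gene, 3 passed in this comparison (background 0.108%). The other 2 were DNAJB1 transcripts, TCONS_00205182 and TCONS_00205184, whose own levels were near 1 FPKM in every group and whose share rose as the rest of DNAJB1 fell.

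**Figure D3:**
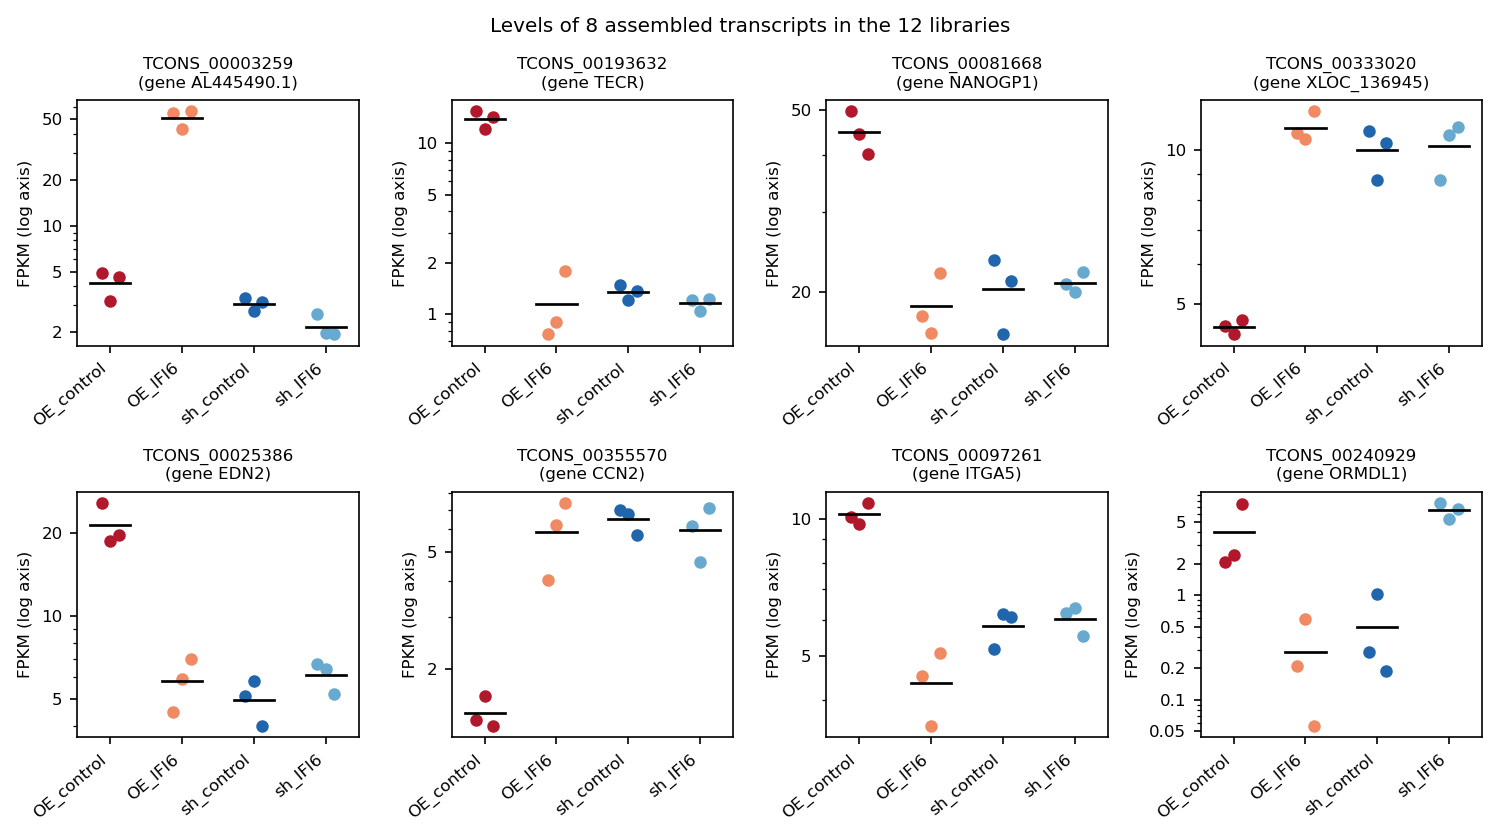
FPKM on a log axis for 8 assembled transcripts in the 4 groups, with 1 point per library and a line at the group mean (n = 3). TCONS_00003259 is high only in OE_IFI6, the next 6 have OE_control apart from the rest, and TCONS_00240929 is high in sh_IFI6 and OE_control.

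Transcripts opposite genes of glucose transport and adhesion were lower in OE_IFI6 than in OE_control. TCONS_00081668 (NANOGP1, a pseudogene of the pluripotency factor NANOG; chromosome 12, 7821281 to 7936242) ends at SLC2A3, which encodes the glucose transporter GLUT3 on the other strand. It was at 49.7, 44.4 and 40.1 FPKM in OE_control and 17.7, 16.3 and 22.0 FPKM in OE_IFI6, a fall of 1.22 on the log2 scale (SE 0.17, limma adjusted p = 0.0094), and the 6 interference libraries lay between 16.2 and 23.5 FPKM. SLC2A3 fell by 1.10. At ITGA5, the gene of the fibronectin receptor subunit alpha 5, transcripts from both strands fell. TCONS_00097261, in the sense direction (chromosome 12, 54395261 to 54397862), went from 10.2 ± 0.556 to 4.37 ± 0.790 FPKM (SD, n = 3; log2 -1.07, limma adjusted p = 0.0086), and the antisense TCONS_00085968 of AC079313.1 from 7.24 ± 1.03 to 3.16 ± 0.518 FPKM (log2 -0.99, limma adjusted p = 0.014). ITGA5 as a whole fell by 1.13, and TCONS_00085968 held 7.74% to 10.0% of its level in every library. The call of TCONS_00085968 was lost without OE_IFI6 library 2 (limma adjusted p = 0.052). Another transcript opposite ITGA5, TCONS_00085967 of XLOC_037018, also passed (log2 -1.07). Its ratio to ITGA5 was less even, from 0.972% to 4.46%, and its call held in 2 of 12 fits that left out 1 library.

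EDN2 encodes endothelin 2, a vasoactive peptide. TCONS_00025386, 1 of the gene's 2 assembled transcripts of at least 1 FPKM, has the outer bounds of the gene (chromosome 1, 41478775 to 41484683, minus strand). It was at 25.7, 18.6 and 19.6 FPKM in OE_control, 4.51, 5.91 and 7.0 in OE_IFI6, 5.15, 5.81 and 4.0 in sh_control, and 6.68, 6.43 and 5.21 in sh_IFI6. OE_control stood alone above the others. The fall of 1.72 (SE 0.20, limma adjusted p = 0.0040) was numerically larger than that of EDN2 as a whole, which fell by 0.64. As a share of the gene the transcript's difference of -1.21 did not pass (limma adjusted p = 0.17).

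Both remaining transcripts of the 7 were higher in OE_IFI6. The CCN2 transcript TCONS_00355570 (chromosome 6, 131946832 to 131951372) was at 1.34, 1.61 and 1.28 FPKM in OE_control and 4.03, 6.22 and 7.38 FPKM in OE_IFI6, a rise of 1.48 (SE 0.21, limma adjusted p = 0.011). The interference libraries lay between 4.64 and 7.10 FPKM, so OE_control was again the low group. TCONS_00333020, of the assembled locus XLOC_136945 (chromosome 5, 138460966 to 138480593), crosses the immediate early transcription factor gene EGR1 on the other strand and runs beyond it on both sides. Its strand comes from the order of the identifiers, which separated the strands of 99.99% of assembled transcripts of annotated genes. It rose from 4.52 ± 0.145 to 11.1 ± 0.737 FPKM (SD, n = 3; log2 1.13, limma adjusted p = 0.0051), against 9.99 ± 1.12 FPKM in sh_control. EGR1 rose by 0.94, from 0.945 to 2.92 FPKM, so the assembled transcript was the more abundant of the pair.

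The other 21 calls were each lost without some library. Around MYC, the growth-promoting transcription factor gene on chromosome 8, 3 assembled transcripts rose. The MYC transcript TCONS_00386898 went from 3.80 ± 0.482 to 8.25 ± 1.20 FPKM (SD, n = 3; log2 0.94). The CASC11 transcripts on the other strand, TCONS_00395496 and TCONS_00395493, rose by 1.38 and 1.19. MYC as a whole ranged widely within groups and did not pass (log2 0.98, limma adjusted p = 0.35). A transcript of CASC19, another non-coding gene of that region, rose by 1.14, from 0.444 ± 0.0363 FPKM in OE_control (SD, n = 3). Of the 4, TCONS_00395496 lost its call only without OE_IFI6 library 2 (limma adjusted p = 0.060).

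Falls opposite stress and secretion genes followed the same pattern of high OE_control. They were TCONS_00070093 opposite ADM, which encodes the peptide adrenomedullin (log2 -0.96), TCONS_00339186 of IER3-AS1 opposite the immediate early gene IER3 (-0.86), and TCONS_00210295 of PLEKHA4, which overlaps PPP1R15A, the gene of the stress phosphatase subunit GADD34 (-0.88). TCONS_00204823 lay opposite CALR, the gene of the endoplasmic reticulum chaperone calreticulin, and was the most abundant of the 28. It was at 121, 102 and 116 FPKM in OE_control and 61.7, 61.1 and 83.5 FPKM in OE_IFI6 (log2 -0.72, limma adjusted p = 0.045). The PLEKHA4 transcript held 66.4% of its gene's FPKM, and that gene fell by 0.85. That transcript reached the minimum of 1 FPKM only through OE_control, so its difference is a description with no test. A transcript opposite the nuclear receptor gene NR4A1, TCONS_00096570, was the exception among those sharing a bound with the gene opposite. It rose by 0.74 while NR4A1 had a difference of -0.32 that did not pass (limma adjusted p = 0.43).

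Smaller groups of calls had no gene opposite. A transcript of LIF, the gene of a cytokine, was at 1.70, 6.05 and 5.73 FPKM in OE_control and at most 0.805 FPKM in the other 9 libraries. It reached the minimum of 1 FPKM only through OE_control, the group in which it was high, so its difference is given as a description with no test, and the same holds for the PLEKHA4 transcript. Both are nevertheless counted among the 28, and the LIF transcript also among the 17. The LIF transcript held 57.6% of LIF in OE_control and 10.0% in OE_IFI6. A transcript of PDE4D, a cyclic AMP phosphodiesterase gene, was at 0, 0.0537 and 0.0289 FPKM in OE_control and at 1.94, 3.28 and 2.62 FPKM in OE_IFI6 (limma adjusted p = 0.028), yet it was a small part of the gene (73.6 FPKM in OE_control). TFAP2A, which encodes a transcription factor of ectodermal tissues, had a transcript that rose by 0.67. Leaving out 1 library at a time kept the PDE4D and TFAP2A calls in 5 and 0 of 12 fits, with limma adjusted p of up to 0.092 and 0.11.

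The pairs described above are part of a wider set. The spans of 1744 assembled transcripts held exons of an expressed protein-coding gene on the other strand, and 1307 of these also shared at least 1 bound (within 200 bases) with a transcript of that gene, 385 of them both. Of the 1307, 910 were in the class of other genes and 397 were assigned to another protein-coding gene. Their level was a median of 5.90% of the gene opposite (quartiles 3.27% and 10.4%), and those genes were themselves abundant, with a median of 36.6 FPKM against 9.65 FPKM for all protein-coding genes of at least 1 FPKM. This set was defined after the values were seen.

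Across these 1307 pairs the difference between OE_IFI6 and OE_control went the same way in most cases where the gene opposite passed. The gene opposite passed for 149 pairs (11.4%), and the assembled transcript had the same sign in 126 of them. In 92 pairs the gene fell, and the assembled transcript was below 0 in 78 of them, with a median of -0.44 against -0.66 for the genes. In 57 pairs the gene rose, and the assembled transcript was above 0 in 48, with medians of 0.32 and 0.69. The log2(FPKM + 1) scale understates differences of scarce transcripts, so these medians cannot be compared in size with those of the genes. A gene with several transcripts opposite it counts once for each, and the 1307 pairs held 1076 genes. Pearson's r between the 2 log2 differences was 0.36 and Spearman's rho 0.40 over all 1307 pairs, and r was 0.49 over the 385 that shared both bounds. These correlations are across transcripts measured in the same libraries, are not over independent replicates, and are given as descriptions. Of 12 assembled transcripts in the set that passed, 11 lay opposite a gene that passed in the same direction. Both counts include the PLEKHA4 transcript, whose difference is given as a description with no test. The 12 are 0.918% of the set, below the background of 1.16%.

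**Figure D4:**
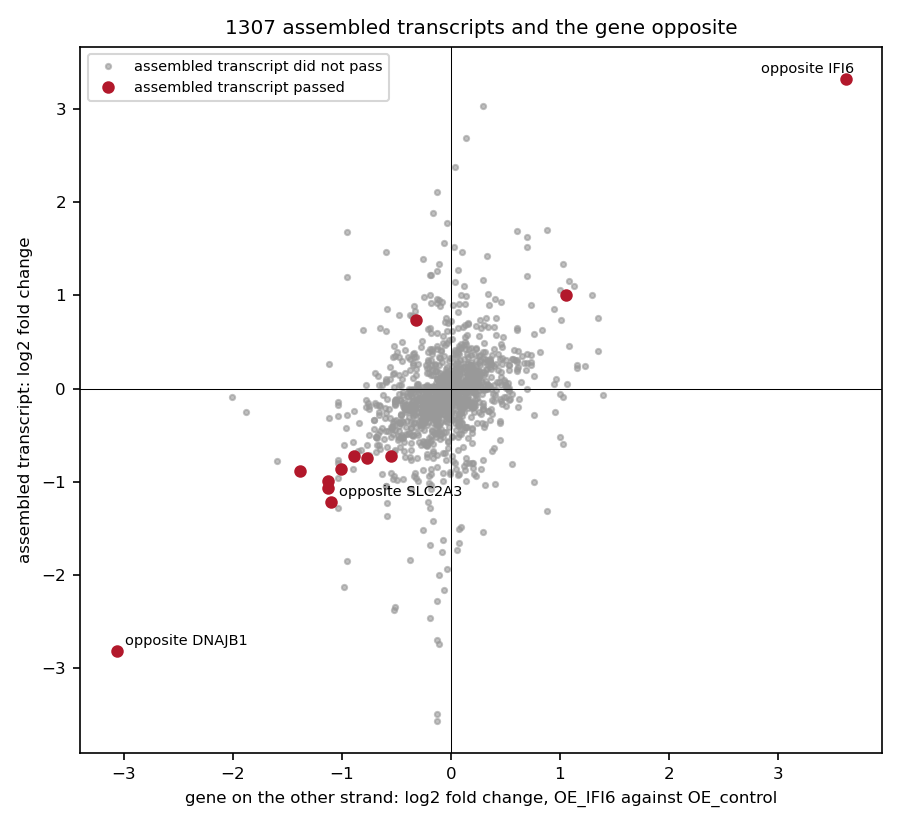
Log2 difference between OE_IFI6 and OE_control of 1307 assembled transcripts (vertical axis) against that of the protein-coding gene on the other strand (horizontal axis), with 1 point per pair and the 12 that passed in red. The points opposite IFI6 and DNAJB1 lie at the far ends, at 3.32 and -2.81, and Pearson's r over all points is 0.36.

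In the knockdown comparison no assembled transcript passed. Between sh_IFI6 and sh_control, limma called 0 of 2810 (background 0.0283%, or 8 of 28221), and 97 (3.45%) had an unadjusted p under 0.05, against 5.16% of all transcripts tested. The smallest p-values included a transcript of ORMDL1, which encodes a regulator of sphingolipid synthesis. TCONS_00240929 (chromosome 2, 189770267 to 189784068) was at 7.64, 5.40 and 6.70 FPKM in sh_IFI6 and 0.284, 1.03 and 0.190 in sh_control (log2 2.37, limma adjusted p = 0.20). It was also at 2.08, 2.44 and 7.52 FPKM in OE_control and 0.213, 0.588 and 0.0562 in OE_IFI6. The level was thus high in 2 groups that differ in vector and in IFI6, and ORMDL1 as a whole did not pass in either comparison. TCONS_00328161, opposite the ribosome rescue gene PELO, was at 1.06, 1.86 and 1.05 FPKM in sh_IFI6 and 3.35, 3.28 and 3.71 FPKM in sh_control (log2 -0.95, limma adjusted p = 0.24), with PELO itself at a difference of 0.04.

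The overexpression and knockdown effects were then tested against each other, and 4 assembled transcripts passed (0.142%, against a background of 0.273%). They were the transcripts opposite IFI6 (difference of effects 3.69, limma adjusted p = 0.00043) and DNAJB1 (-2.69, limma adjusted p = 0.0039). The others were those of EDN2 (-1.97, limma adjusted p = 0.027) and ORMDL1 (-4.19). The ORMDL1 transcript reached the minimum of 1 FPKM only through OE_control and sh_IFI6, the groups in which it was high. Its difference of effects is therefore a description with no test, although it is counted among the 4. The EDN2 call was lost without OE_IFI6 library 2 (limma adjusted p = 0.053) and without any of 4 interference libraries. In the test of any difference among the 4 groups 15 assembled transcripts passed (0.534%, against a background of 0.709%).

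One pair on chromosome 9 separated the kinds of vector, whatever the IFI6 level. TCONS_00403664 of XLOC_169828 (111780048 to 111788006) was at 4.04, 2.86 and 2.79 FPKM in OE_control and 3.47, 3.06 and 3.70 in OE_IFI6, and at most 0.0433 FPKM in the 6 interference libraries. TCONS_00403636, assigned to the readthrough gene DNAJC25-GNG10 (111661605 to 111788006), was listed at 0 in the 6 overexpression libraries and was at 3.93, 2.61 and 2.67 FPKM in sh_control and 2.90, 3.42 and 3.29 in sh_IFI6. The 2 share their right bound, and their sum lay between 2.61 and 4.04 FPKM in all 12 libraries, with no difference between groups beyond their spread (3.23 ± 0.702, 3.41 ± 0.324, 3.08 ± 0.771 and 3.21 ± 0.252 FPKM in OE_control, OE_IFI6, sh_control and sh_IFI6; SD, n = 3). Each reached the minimum of 1 FPKM only through the kind of vector in which it was high, so the difference is a description with no test, although both are among the 17 and the 3 transcripts counted above. Among all 259360 transcripts TCONS_00403636 was the only one listed at 0 in all 6 overexpression libraries and above 1 FPKM in all 6 interference libraries. The assembled transcripts are models, and which model a library's reads were given to was not tested.

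**Figure D5:**
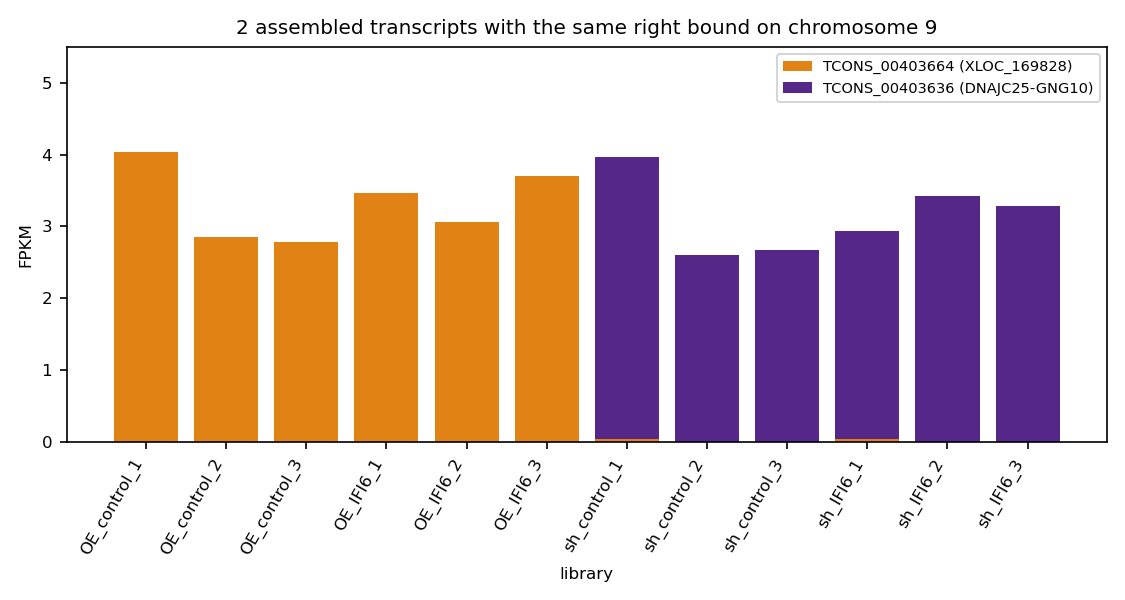
FPKM (vertical axis) of TCONS_00403664 and TCONS_00403636, stacked, in each of the 12 libraries (horizontal axis). The overexpression libraries hold the first and the interference libraries the second, while the stacked height stays between 2.61 and 4.04 FPKM.

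Genes for RNA decay and 3′ end processing have products that remove or terminate many unannotated transcripts. The list held 48 symbols, some of which name the same gene, and 45 genes were tested. Of the 45, 1 rose and 1 fell between OE_IFI6 and OE_control, against a background of 7.66% of protein-coding genes. EXOSC6, a subunit of the RNA exosome, rose by 0.42 (limma adjusted p = 0.024), and SMG5, a factor of nonsense-mediated decay, fell by 0.67 (limma adjusted p = 0.0048). Both also passed between OE_control and sh_control, EXOSC6 at -0.41 (limma adjusted p = 0.027) and SMG5 at 0.54 (limma adjusted p = 0.016), and between OE_IFI6 and sh_control their differences were 0.01 and -0.14. CPSF7, a 3′ end processing factor, passed between OE_control and sh_control as well (-0.41, limma adjusted p = 0.046). The share of all protein-coding genes that passed in that comparison is not given here. No listed gene passed in the knockdown comparison in limma, where 2 had an unadjusted p under 0.05 and 0 of all 10925 protein-coding genes passed.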

How the data were processed

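RNA of 12 TE-1 libraries was measured by sequencing of libraries made for long non-coding RNA, per the labels' protocols. The authors deposited FPKM values for genes and transcripts, and all values used here are those FPKM. The authors named HISAT2, StringTie, Cuffdiff and edgeR, per the submitters' processing notes, where versions and roles are absent. Not given in the sources used here: genome build, annotation release, assembly settings, strand use and read totals. Depth per library is therefore unknown, and no counting interval is given.

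Groups and replicate numbers were read from the sample titles. Limma 3.58.1 (R 4.3.3) fitted 1 group-means model to the 12 libraries (8 residual degrees of freedom, trended prior variance) on log2(FPKM + 1), and p-values were adjusted over all 28221 transcripts with a mean of at least 1 FPKM. A share of a gene is log2(FPKM + 1) of the transcript minus that of the summed other transcripts, over 22312 transcripts. Protein-coding genes were fitted alike (10925 genes). Scripts were tested on simulated data. Strand was taken from GENCODE release 29 for the assigned gene (2518 assembled transcripts) or from identifier order (266), and 26 had none. Bounds count as shared with a gene on the other strand within 200 bases, and with the transcript's own gene only when equal. Tables were handled in Python 3.11.15 with pandas 2.3.3. Promoter sequences are from RefSeq (GRCh38.p14). The assembled transcripts, the lists and the sets of pairs were chosen with earlier results of these data known.

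Named transcripts were, in each class, the 10 of highest mean, up to 8 per direction and comparison of largest passing change with no overlap between the groups compared (or the 3 of smallest p), up to 5 of smallest p over the 4 groups, those passing as a share of their gene between OE_IFI6 and OE_control, and 3 on each side of the minimum. Alternatives were no filter, a minimum of 5 FPKM, a pseudocount of 0.1, quantile normalization, median-of-ratios scaling, no trend, a robust prior, only the libraries compared, a replicate block, an added log2 threshold of 1, other minimum means, and leaving out each library.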

Additional observations from a re-analysis of the deposited data

Results flagged for a closer look

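In 4 assembled transcripts the overexpression effect (OE_IFI6 against OE_control) and the knockdown effect (sh_IFI6 against sh_control) differed in a limma test of that difference over all 28221 transcripts. The transcript opposite IFI6, TCONS_00003259, had a difference of effects of 3.69 on the log2 scale, with a rise of 3.32 in one comparison and a difference of -0.37 in the other. For TCONS_00193632, opposite DNAJB1, it was -2.69. For TCONS_00025386 of EDN2 it was -1.97. In both of these the OE_control libraries lay above the other 9. For TCONS_00240929 of ORMDL1 it was -4.19, from effects of -1.82 and 2.37 that each did not pass on their own (limma adjusted p = 0.057 and 0.20). That transcript reached the minimum of 1 FPKM only through OE_control and sh_IFI6, where it was high. Its difference of effects is therefore a description with no test, although it is counted among the 4.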

How the results depend on the processing

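Read depth is unknown, and most assembled transcripts lie near 1 FPKM, where counting error is largest. The 28 calls between OE_IFI6 and OE_control became 8 with no filter on low values (3 higher and 5 lower, 5 in protein-coding and 3 in other genes), 17 with a minimum of 5 FPKM (9 and 8, 5 and 12), 7 with only the libraries compared (5 and 2, 5 and 2), and 15 with an added log2 threshold of 1 (9 and 6, with 9 in other genes). The 17 calls between OE_control and sh_control became 8 with no filter (4 lower, 5 and 3 by class) and 11 with only the libraries compared (5 lower, 3 in other genes), 7 were lower with a minimum of 5 FPKM, and 10 were higher with median-of-ratios scaling. Only the libraries compared gave 1 call in the knockdown comparison and 7 between OE_IFI6 and sh_control, where a minimum of 5 FPKM gave 1. No filter gave 9 calls over the 4 groups. The filters, the fits to only the libraries compared and the added threshold change by construction what enters or can pass, and for median-of-ratios scaling the cause was not tested. A minimum mean of 0.5 FPKM gave 5733 assembled transcripts and 2 FPKM gave 1288.

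Leaving out 1 library at a time gave 9 to 20 calls between OE_IFI6 and OE_control (5 to 11 higher, 4 to 12 lower, 5 to 10 in protein-coding and 4 to 12 in other genes) and 7 to 20 between OE_control and sh_control (3 to 11, 4 to 11, 4 to 9 and 3 to 11). It gave 0 to 4 in the knockdown comparison, 4 to 11 for the difference of effects, 3 to 5 between OE_IFI6 and sh_control, 10 to 18 over the 4 groups, 2 to 8 and 3 to 8 as a share of the gene in the first and second of these comparisons, and 1 to 3 and 0 to 3 decay factors. A group left with 2 libraries is taken to vary like the others. Of the 28, TCONS_00003259 and TCONS_00193632 passed under every setting in which they were tested.

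The replicate numbers did not pair the libraries. Same-numbered libraries of different groups had correlations of deviations from -0.03 to 0.04 over 18 pairs, and 2 of 12 libraries correlated best with their own number in every group. With the number as a replicate block there were 10 calls between OE_IFI6 and OE_control (6 higher, 4 lower, 4 and 6 by class), 9 between OE_control and sh_control (5 lower, 5 and 4 by class), 2 for the difference of effects, 6 over the 4 groups and 1 as a share of the gene.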
